A study of Mus musculus with 17 samples.

Results

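The urea cycle and the periportal breakdown of amino acids were followed through 10 genes, Cps1, Otc, Ass1, Asl, Arg1, Nags, Gls2, Slc25a15, Hal and Sds, in the livers of miR-29 transgenic, old and young mice. They were picked by name, as rows of the deposited table that carry these symbols. They are 10 of its 48440 gene rows, and all 10 were among the 14588 genes abundant enough to be tested (a mean normalized count of at least 10 over the 17 libraries). None was lost to that filter.

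Polyadenylated RNA was sequenced from mice carrying a miR-29 transgene at 2 months of age (6 libraries, called transgenic here), from wild-type B6 mice aged 2 years (5 libraries, old) and from wild-type B6 mice aged 2 months (6 libraries, young). B6 is the common black inbred laboratory strain. The transgenic group held 5 males and 1 female, the old group 3 males and 2 females, and the young group 4 males and 2 females. Libraries were built in batch A at the University of North Carolina with a TruSeq polyA kit (3 transgenic, 3 old, 4 young) or in batch B at Cornell University with a directional NEBNext kit (3 transgenic, 2 old, 2 young), and batch B held males only, 7 in all. The promoter, insertion site and line of the transgene are not given in the sources used here, and the labels do not say whether each library is a separate animal, so p-values measure the spread between libraries. The comparisons ask which genes differ with the transgene, which with age, and where those differences are unlike each other.

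The urea cycle turns toxic ammonia into urea. Its first steps run in the mitochondria of hepatocytes, where Nags makes the activator of carbamoyl phosphate synthetase, Cps1 joins ammonia and bicarbonate into carbamoyl phosphate, and Otc transfers that group to ornithine to give citrulline. Slc25a15 exchanges ornithine and citrulline across the inner mitochondrial membrane, and in the cytosol Ass1, Asl and Arg1 complete the cycle through argininosuccinate and arginine to urea. Gls2, the liver glutaminase, releases ammonia from glutamine, Hal begins the breakdown of histidine, and Sds turns serine into pyruvate. These enzymes are richest in hepatocytes around the portal vein, the periportal zone, while cells around the central vein capture leftover ammonia as glutamine.

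MicroRNAs of the miR-29 family bind messages through bases 2 to 8, the seed. It is in capitals in the mature mouse sequences (RefSeq, GRCm38.p6), shown because the match searched for in the members comes from it.
mmu-miR-29a-3p: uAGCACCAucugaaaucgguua
mmu-miR-29b-3p: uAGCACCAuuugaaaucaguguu
mmu-miR-29c-3p: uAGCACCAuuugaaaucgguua
The match to this shared seed, TGGTGCT on the sense strand, was present in the longest annotated 3′ UTR of 1 member, Cps1, and in 2758 of 20846 genes, or 13.2%. The Cps1 match lies on the plus strand at chr1:67230600-67230628 (GRCm38), is in capitals, and begins at base 265 of a UTR of 913 bases.
Cps1 site: ttaacatttcaTGGTGCTggtttataacg
The UTRs of Otc, Asl and Nags, the members that changed with the transgene, held no such letters. Shorter or other matches, and other parts or forms of these messages, were not searched. Every library lists Mir29a, Mir29c and both Mir29b precursors at 0, so the level of miR-29 itself was not measured.

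Values are the authors' normalized counts, which summed to 28077001 to 44543936 per library, and the sequencing depth is unknown. In bulk liver, fewer cells of a type and less RNA per cell cannot be told apart. The 7 measured hepatocyte markers, led by albumin, were abundant everywhere, with sums of 1785667 to 6229824 in transgenic, 2652739 to 4603787 in old and 2954565 to 4435516 in young livers, and none of them passed the test in any comparison. The sum of 10 neutrophil markers was 542 to 44555 in transgenic, 138 to 2188 in old and 61.3 to 521 in young livers, and all 10 rose in transgenic against young livers. Of 10 macrophage markers 1 rose, with sums of 8336 to 52145 in transgenic, 12049 to 46637 in old and 11450 to 23596 in young livers. Of 7 red cell markers 4 rose, with sums of 23102 to 1592647 in transgenic, 14046 to 96450 in old and 16410 to 201757 in young livers. The other 3 red cell markers did not pass, at -2.09 for Hba-a1, -2.08 for Hba-a2 and -1.09 for Alas2 on the log2 scale. The sum of 6 endothelial markers was 2567 to 6473 in transgenic, 4629 to 5462 in old and 2167 to 4662 in young livers, and 1 of them rose in transgenic against young livers, Stab2 by 1.44. For 6 stellate cell markers the sums were 7582 to 12585 in transgenic, 4533 to 9307 in old and 7666 to 11857 in young livers, and Col1a1 fell by 1.88. For 6 cholangiocyte markers, 5 of them tested, they were 713 to 1734 in transgenic, 944 to 2107 in old and 1593 to 3722 in young livers, and Spp1 fell by 1.21. For 8 lymphocyte markers, 7 of them tested, they were 206 to 1539 in transgenic, 1377 to 4630 in old and 384 to 951 in young livers, with no overlap between old and young. Ighm rose both in transgenic against young livers, by 1.93, and in old against young livers, by 3.27 on the log2 scale (limma adjusted p = 0.00811 and 0.0066). The median of the 7 tested lymphocyte markers was -0.53 in transgenic against young livers and 0.61 in old against young livers. In transgenic against old livers it was -1.33, and 1 of these markers fell. The part of all these cells in the results below was not tested.

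Together these genes made up 0.971% to 2.25% of the library total in transgenic livers (median 1.32%), 0.820% to 1.50% in old livers (median 1.20%) and 0.547% to 1.29% in young livers (median 0.980%). Divided by exon length, Ass1 was the highest message in all groups, at 89141 ± 23363 normalized counts per kb in transgenic livers (SD, n = 6), 80916 ± 30056 in old livers (SD, n = 5) and 64455 ± 15919 in young livers (SD, n = 6). Arg1 came next, at 54586 ± 12343 in transgenic, 41263 ± 12886 in old and 38212 ± 3804 normalized counts per kb in young livers. Cps1 was the third, at 20122 ± 12848 in transgenic, 15651 ± 5783 in old and 15360 ± 8777 normalized counts per kb in young livers, but its place differed between the batches. In batch A its average was above those of Asl and Sds in every group. In batch B it averaged 9954 in transgenic, 11844 in old and 4451 normalized counts per kb in young livers, below the Asl averages of 24959, 12348 and 12617 in the same groups. The order below these differed between the groups.

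In transgenic livers Cps1 was followed by Asl (19092 ± 8682 normalized counts per kb) and Sds (13351 ± 9298), and the ranges of these 3 genes overlapped. Slc25a15 (5681 ± 2001), Gls2 (3392 ± 1352) and Hal (3119 ± 1814) lay lower, again with overlapping ranges, and Nags (1886 ± 407) and Otc (1760 ± 543) were the lowest (all SD, n = 6). In old livers Sds (11815 ± 3267) stood above Asl (9987 ± 3461), with overlapping ranges, while Otc (3244 ± 1412) was the eighth and Nags (1101 ± 347) the lowest (SD, n = 5). In young livers Otc was the seventh, at 4086 ± 482 normalized counts per kb, next to Slc25a15 (4300 ± 1261) and Gls2 (3563 ± 746), whose ranges it overlapped. Nags was the lowest of all in young livers, at 923 ± 214 (SD, n = 6).

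**Figure D1:**
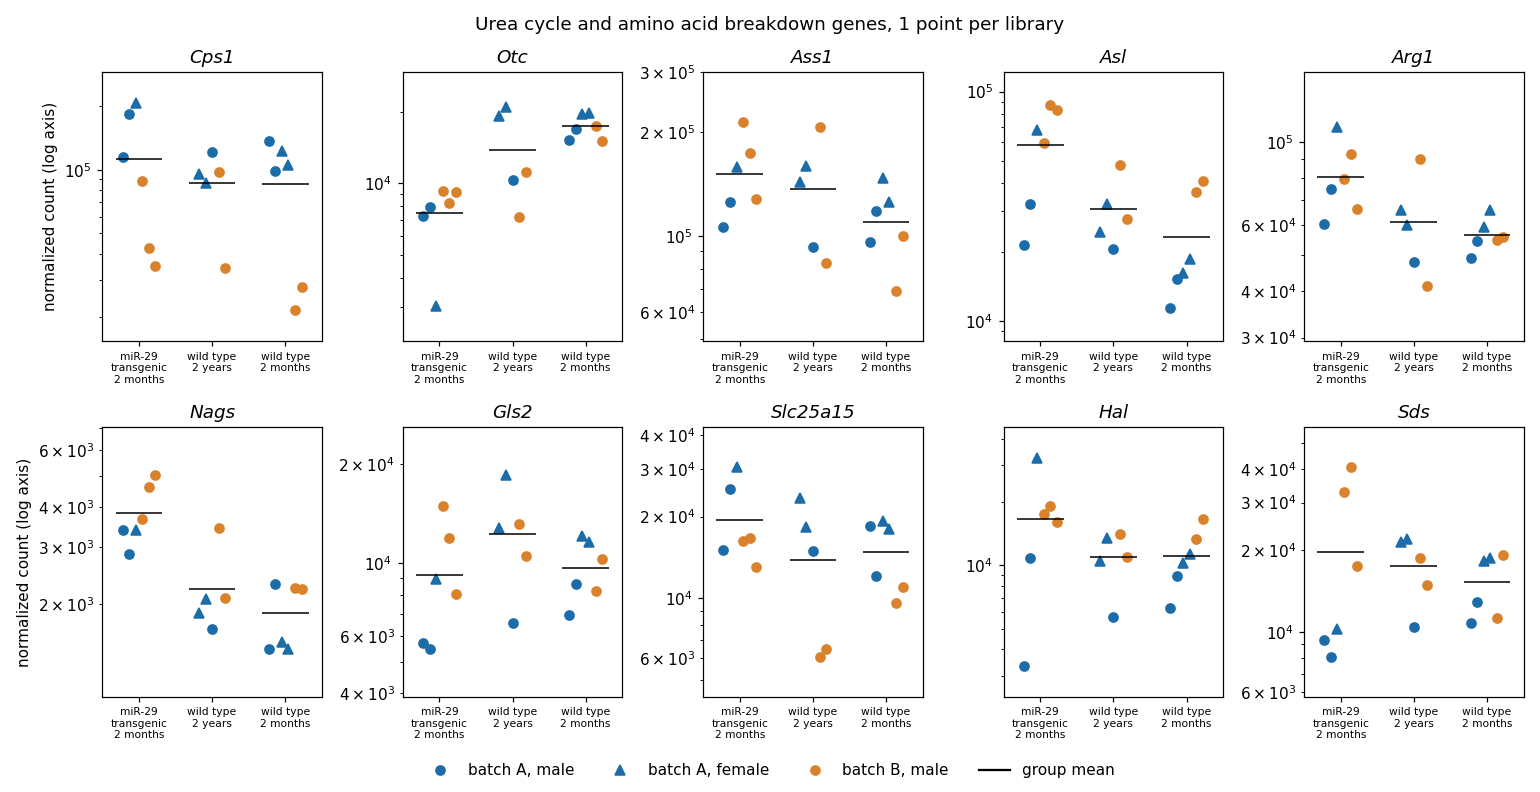
Normalized count of each gene in each library, on a log axis, for transgenic, old and young livers; colour gives the batch, triangles are females and black bars are group means. Otc is lower and Nags higher in every transgenic library than in every young library, while Cps1 in transgenic and young livers separates by batch, with young livers at 98997 to 136136 in batch A and at 21580 and 27874 in batch B.

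Transgenic livers had more Asl and Nags message and less Otc message than young wild-type livers, so single steps of 1 cycle moved in opposite directions. Of the 10 genes, 2 rose and 1 fell by limma with an adjusted p under 0.05, against 2.89% of all tested genes that rose and 3.83% that fell, or 6.71% in either direction. A total of 5 members had an unadjusted p under 0.05, against 21.2% of all tested genes. The fold change was above 0 for 8 of 10, with a member median of 0.52 on the log2 scale and a median of 0.01 over all tested genes. Batch and sex were terms of the model, and fold changes refer to log2(normalized count + 1). By the authors' deposited table, 6 members had an adjusted p under 0.05, against 14.1% of the genes with a p there, with Cps1 (0.81, adjusted p = 0.0329), Arg1 (0.55, adjusted p = 0.0105) and Slc25a15 (0.55, adjusted p = 0.0482) besides Asl, Nags and Otc. The members were chosen with earlier results of these data in view.

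Nags (chr11:102145513-102149477, GRCm38, plus strand) encodes N-acetylglutamate synthase, whose product switches on Cps1. It stood at 3399, 2864 and 3383 normalized counts in the transgenic livers of batch A and at 3665, 4601 and 5038 in those of batch B. Young livers had 1450, 2316, 1531 and 1455 in batch A and 2246 and 2236 in batch B. Every transgenic library lay above every young library, in each batch as well as across both. Nags rose by 0.95 ± 0.17 on the log2 scale (SE, limma adjusted p = 0.00264, 95% interval 0.59 to 1.32), or 1.94-fold. Within batch A alone the log2 fold change was 0.95 (limma adjusted p = 0.0477), and within batch B alone it was 0.97 (limma adjusted p = 0.120).

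The Nags locus overlaps an antisense gene, Gm11586, whose own counts were 12.0 to 39.6 in transgenic, 6.66 to 26.8 in old and 8.78 to 35.2 in young livers. These are a small fraction of the Nags counts, and the strand setting of the counting is not given in the sources used here. Old livers had Nags counts of 1874, 2074 and 1670 in batch A and 3453 and 2095 in batch B, so 4 of 5 lay inside the range of the young livers and 1 above it.

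Otc (chrX:10252305-10321024, plus strand) encodes ornithine transcarbamylase. It was at 7242, 7903 and 3027 normalized counts in the transgenic livers of batch A and at 9248, 8228 and 9148 in those of batch B. Young livers held 15244, 16812, 19581 and 19794 in batch A and 17458 and 15074 in batch B. The groups did not overlap, and the highest transgenic value was well below the lowest young one in each batch. Otc fell by 1.27 ± 0.30 on the log2 scale (SE, limma adjusted p = 0.0170, 95% interval -1.91 to -0.63), to 0.414 times the young level.

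The lowest Otc value of all, 3027, came from the only transgenic female, and without that library the log2 fold change was -0.83 (limma adjusted p = 0.0207). The same female had the lowest hepatocyte marker sum of the 17 libraries, 1785667, but the highest counts of Arg1 (109866), Cps1 (207516), Slc25a15 (30515) and Hal (32367). Among males alone Otc fell by 0.96 on the log2 scale (limma adjusted p = 0.0117). Within batch A alone the log2 fold change was -1.67 (limma adjusted p = 0.0558) and within batch B alone -0.87 (limma adjusted p = 0.141), so neither batch passed the threshold by itself.

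Asl (chr5:130011258-130029247, minus strand) encodes argininosuccinate lyase, which splits argininosuccinate into arginine and fumarate. Its counts were 21478, 32341 and 67742 in the transgenic livers of batch A and 59761, 87009 and 82652 in those of batch B. Young livers had 11408, 15264, 16169 and 18615 in batch A and 36458 and 40861 in batch B. The groups overlapped across batches, and batch B had the higher average in both. Within each batch every transgenic library exceeded every young one. Asl rose by 1.23 ± 0.23 on the log2 scale (SE, limma adjusted p = 0.00385, 95% interval 0.74 to 1.72), or 2.35-fold.

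The call for Asl depended on the batch and sex terms: without them the log2 fold change was 1.34 and the limma adjusted p was 0.0792. Within batch A alone it was 1.37 (limma adjusted p = 0.0431) and within batch B alone 0.97 (limma adjusted p = 0.212). Nags and Otc were thus 2 of 10 members without any overlap between transgenic and young libraries, against 2.95% of all tested genes. Nags, Otc and Asl were 3 of 10 without overlap within both batches in 1 direction, against 7.03% of all tested genes.

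The opposite movement of Asl and Otc was visible in single libraries, a contrast chosen after their values were seen and given as a description. Asl counts were 2.97 to 22.4 times Otc counts in transgenic livers (median 7.75), 1.27 to 6.66 times in old livers (median 2.01) and 0.748 to 2.71 times in young livers (median 0.924). Within batch A the ratio was 2.97 to 22.4 in transgenic, 1.27 to 2.01 in old and 0.748 to 0.940 in young livers, with no overlap between the groups. Within batch B it was 6.46 to 10.6 in transgenic livers, 2.48 and 6.66 in old livers and 2.09 and 2.71 in young livers, where the transgenic and old ranges overlapped.

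**Figure D2:**
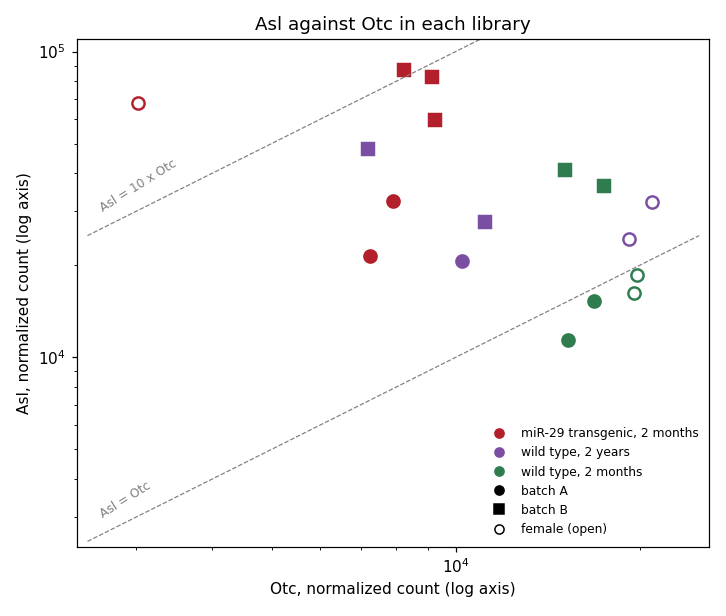
Asl against Otc normalized counts in each library, both on log axes; colour gives the group, shape the batch and open symbols females, and dashed lines mark equal counts and a ratio of 10. Transgenic libraries lie towards the upper left, with ratios of 2.97 to 22.4, and young libraries towards the lower right, with ratios of 0.748 to 2.71.

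The other members of the cycle did not pass the test in transgenic against young livers. Slc25a15 (chr8:22375551-22398597, minus strand), the ornithine carrier, spanned 12989 to 30515 normalized counts in transgenic livers (median 16485) and 9578 to 19306 in young livers (median 15010). Its log2 fold change was 0.58 ± 0.21 (SE, limma adjusted p = 0.105), and it passed the threshold with totals made equal (0.72, limma adjusted p = 0.0498), with quantile normalization (0.83, limma adjusted p = 0.0218) and without transgenic replicate 1 (0.72, limma adjusted p = 0.0409). Arg1 (chr10:24915221-24927484, minus strand), arginase, spanned 60485 to 109866 in transgenic livers (median 77188) and 48871 to 65697 in young livers (median 55256), an overlap of a narrow band. Its log2 fold change was 0.52 ± 0.22 (SE, limma adjusted p = 0.165). Mouse macrophages can also express Arg1. The macrophage marker sums were 8336 to 15903 in transgenic and 11450 to 17046 in young livers of batch A, and 29760 to 52145 in transgenic against 15104 and 23596 in young livers of batch B, and their part in the Arg1 values was not tested.

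Ass1 (chr2:31470207-31520672, plus strand), argininosuccinate synthetase, ranged from 105772 to 214554 normalized counts in transgenic livers (median 143362) and from 68988 to 146936 in young livers (median 109243). The groups overlapped, and the log2 fold change was 0.51 ± 0.27 (SE, limma adjusted p = 0.303). A processed pseudogene, Gm5424, shares 99.5% identity with Ass1 over 1240 bases and had 2631 to 14583 counts in transgenic and 1712 to 13502 in young livers, so reads may be split between them and both values are uncertain.

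Cps1 (chr1:67123026-67231259, plus strand), the member with the miR-29 seed match, had 114384, 182878 and 207516 normalized counts in the transgenic livers of batch A and 88347, 42598 and 34937 in those of batch B. Young livers had 136136, 98997, 122240 and 105116 in batch A and only 21580 and 27874 in batch B. In both groups every batch A library lay above every batch B library. The transgenic and young ranges overlapped in batch A, and in batch B each transgenic library lay above both young ones. The log2 fold change was 0.67 ± 0.34 (SE, limma adjusted p = 0.273, 95% interval -0.05 to 1.39), which limma did not call. The authors' deposited table gave Cps1 0.81 on the log2 scale with an adjusted p = 0.0329, so the call depended on the method. In old livers the batches overlapped, with Cps1 at 86808 to 120788 in batch A and at 97519 and 34063 in batch B.

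The 3 amino acid enzymes showed smaller or mixed differences. Gls2 (chr10:128194457-128210004, plus strand) spanned 5479 to 14859 normalized counts in transgenic livers (median 8488) and 6956 to 12094 in young livers (median 9442), and its log2 fold change was -0.11 ± 0.20 (SE, limma adjusted p = 0.814, 95% interval -0.54 to 0.32). Hal (chr10:93488768-93519304, plus strand) spanned 3335 to 32367 in transgenic livers (median 16869) and 6256 to 16595 in young livers (median 10829), and its log2 fold change was 0.35 ± 0.29 (SE, limma adjusted p = 0.538). The lowest and the highest Hal values of the series were both transgenic, a male and the female of batch A. Gls2 and Sds each overlap other genes, Gls2 the gene Spryd4 and Sds the genes Plbd2 and Gm15690, and their counts may include reads of these.

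Sds (chr5:120476526-120483932, plus strand) had 9304, 8068 and 10277 normalized counts in the transgenic livers of batch A and 32794, 40672 and 17519 in those of batch B. Young livers had 10808, 12916, 18314 and 18795 in batch A and 11240 and 19213 in batch B. Transgenic livers were thus lower than all young livers in batch A, while in batch B the ranges overlapped and 2 transgenic libraries exceeded both young ones. Over both batches the log2 fold change was 0.10 ± 0.30 (SE, limma adjusted p = 0.889). The transgene effect was greater in batch B than in batch A by 1.54 ± 0.46 on the log2 scale (SE, limma unadjusted p = 0.00437, adjusted p = 0.129), which did not pass. Sds was the 1 member with an unadjusted p under 0.05 for this interaction of transgene and batch, and 0 members were called by limma, against 0.5% of all tested genes.

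**Figure D3:**
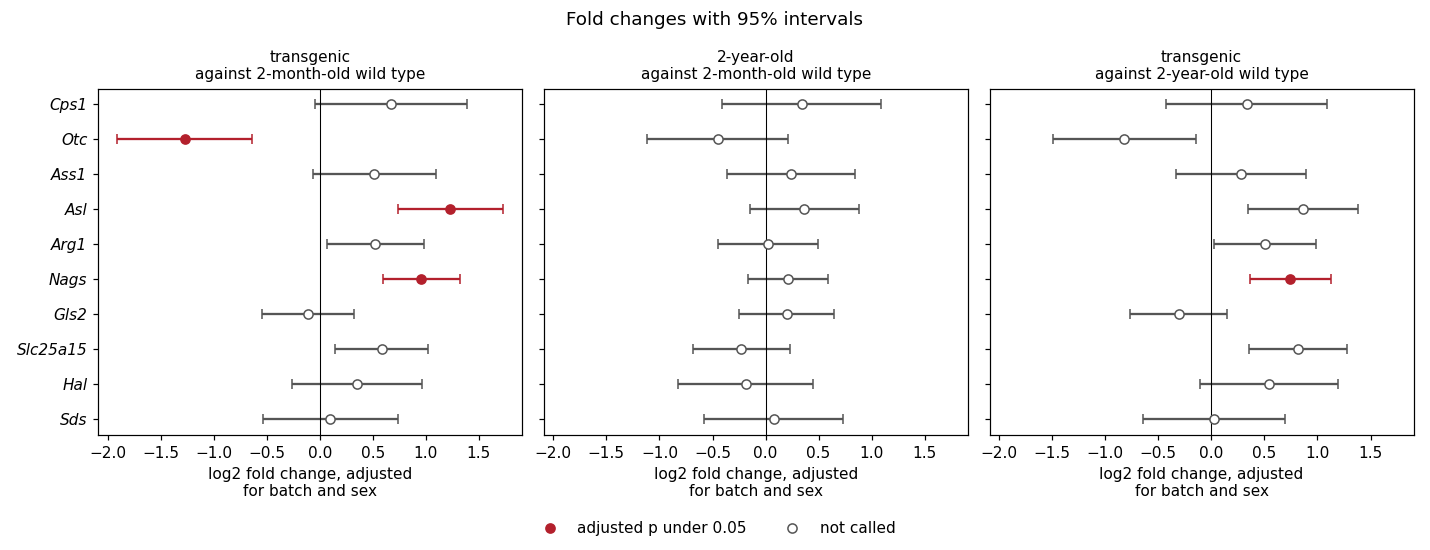
Log2 fold change of each gene with its 95% interval, adjusted for batch and sex, in the comparisons of transgenic with young, old with young and transgenic with old livers; filled red points passed the test. In the first panel Asl (1.23) and Nags (0.95) lie above 0 and Otc (-1.27) below it, in the second panel every interval includes 0, and in the third panel Nags (0.74) passed.

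Age left the 10 genes without a called difference. Old against young livers gave 0 called members by limma, and 0 with an unadjusted p under 0.05, against 0.144% of all tested genes by the first rule and 8.73% by the second. By the authors' deposited table for this comparison, 0 members had an adjusted p under 0.05, against 1.77% of the genes with a p there, and 1, Otc, had an unadjusted p below that level (0.0325), against 12.5%. No member lacked overlap between old and young libraries, against 0.61% of all tested genes. The member median was 0.14 on the log2 scale, with 7 of 10 above 0.

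Otc had the most negative fold change with age and Asl the most positive. Otc stood at 19182, 20978 and 10257 normalized counts in the old livers of batch A and at 7197 and 11176 in those of batch B, against 15074 to 19794 in young livers. Its 2 old females were within or above the young range and its 3 old males below it. The log2 fold change was -0.45 ± 0.31 (SE, limma adjusted p = 0.657), and the age effect in males minus that in females was -0.82 ± 0.32 (SE, limma adjusted p = 0.190), which did not pass. Among males alone the log2 fold change of Otc with age was -0.79 (limma adjusted p = 0.117). Asl was at 24400, 32297 and 20639 in the old livers of batch A, above all 4 young libraries there, and at 47949 and 27720 in batch B, on both sides of the young pair. Its log2 fold change with age was 0.37 ± 0.24 (SE, limma adjusted p = 0.648, 95% interval -0.15 to 0.88).

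The remaining log2 fold changes with age ran from -0.23 ± 0.22 for Slc25a15 to 0.34 ± 0.35 for Cps1, with 0.21 ± 0.18 for Nags (SE, limma adjusted p = 0.706). The intervals show what sizes these data leave possible: -0.17 to 0.59 for Nags, -0.45 to 0.50 for Arg1 and -0.41 to 1.08 for Cps1. For Slc25a15 the 2 old livers of batch B, at 6072 and 6520 normalized counts, lay below the young pair at 9578 and 11047, while the batch A ranges overlapped, at 14965 to 23478 in old and 12029 to 19306 in young livers. The age effect on Cps1 was greater in batch B than in batch A by 1.43 ± 0.67 on the log2 scale (SE, limma unadjusted p = 0.0494, adjusted p = 0.221).

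The comparisons with young livers share those 6 libraries, so transgenic and old livers were also set against each other. Of the 10 genes, 1 was called, against 2.55% of all tested genes, and 5 had an unadjusted p under 0.05, against 15.3%. Nags rose in transgenic against old livers by 0.74 ± 0.18 on the log2 scale (SE, limma adjusted p = 0.0374). It stood at 3825 ± 825 normalized counts in transgenic livers (SD, n = 6) and at 2234 ± 703 in old livers (SD, n = 5). The groups overlapped across the batches but not within either batch, and the share of all tested genes like this was not computed. This call was close to the threshold: it was lost in 12 of the 17 fits that left out 1 library, with adjusted p from 0.0145 to 0.148 and log2 fold changes from 0.64 to 0.87.

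Slc25a15 (0.81 ± 0.22, limma adjusted p = 0.0575), Asl (0.86 ± 0.25, limma adjusted p = 0.0760) and Otc (-0.82 ± 0.32, limma adjusted p = 0.218) did not pass between transgenic and old livers. For Otc the old range, 7197 to 20978 normalized counts, took in most transgenic values, 3027 to 9248. For Asl 4 of 6 transgenic libraries lay above the highest old value of 47949. Without the transgenic female the log2 fold change of Otc was -0.34 (limma adjusted p = 0.549), and among males alone it was -0.17 (limma adjusted p = 0.731).

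Sex differences were examined because the groups held unequal numbers of females. Between males and females 0 members were called by limma, against 0.26% of all tested genes, and 5 had an unadjusted p under 0.05, against 9.37% of all tested genes. All 5 were lower in males: Hal by -1.22 ± 0.32 and Gls2 by -0.85 ± 0.22 on the log2 scale (SE, limma adjusted p = 0.161 for each), Sds by -0.79 ± 0.33, Asl by -0.71 ± 0.26 and Slc25a15 by -0.53 ± 0.23. In the batch A young livers the female and male values of Gls2 did not overlap, with 6956 and 8644 normalized counts in males and 12094 and 11544 in females. The same held there for Otc, Ass1, Asl, Arg1, Hal and Sds, each higher in the females. With so few libraries a side this is a weak criterion, and its share over all tested genes was not computed. Every female library is in batch A, which held 5 females and 5 males, so the sexes meet in that batch only. The males of batch B still enter the fit, through the group terms and the spread.

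The interaction term of transgene and sex for Otc was 1.74 ± 0.35 on the log2 scale in males minus females (SE, limma adjusted p = 0.0267), and Otc was the 1 member called for it, against 1.3% of all tested genes. Its female side is 1 transgenic library, so the term sets that library apart and does not compare the sexes. That library was at 3027 normalized counts, against 19581 and 19794 in young females. Transgenic males had 7242 to 9248 and young males 15074 to 17458. The call was lost without young replicate 3, 4 or 6, and it cannot be estimated without the transgenic female.

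Across the 17 libraries the members did not move as 1 block. As a description, the root-mean-square difference of centred log2 values was smallest between Ass1 and Arg1, 0.279, and greatest between Cps1 and Asl, 1.48, and between Otc and Asl, 1.40. By the same measure genes most like Otc were Ghr, the growth hormone receptor (0.282), and RP23-114A6.4 (0.284). The log2 fold change of Ghr in transgenic against young livers was -1.55 ± 0.28 (SE). Ghr was picked for its likeness to Otc over these same libraries, so its fall is not a separate test. The genes most like Asl were Fgfbp3 (0.279), Adck4 (0.351) and Hmgn2 (0.363), and those most like Nags were Ddx39 (0.258), Mfsd10 (0.260) and Pigo (0.269).

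For the other members the closest genes were Zfp275, Kat7 and Ice1 for Cps1 (0.275 to 0.284), Exoc1, Cul1 and Edem1 for Ass1 (0.314 to 0.318), and Snrnp200, Ciz1 and Nop14 for Arg1 (0.218 to 0.252). Rnf167, Anxa6 and Idh3b were closest to Gls2 (0.204 to 0.285), and Izumo4, Ppp1cc and Adssl1 to Hal (0.370 to 0.403). Ptpn6, Nudt6 and Aldh1l1 were closest to Sds (0.380 to 0.433), and Them4, 2700097O09Rik and Foxo1 to Slc25a15 (0.314 to 0.351). The centred values of all these genes share library, batch and normalization.

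Other genes of nitrogen handling were read from lists drawn up by function, with earlier results of these data known. Of 18 tested partners of the cycle (aminotransferases, mitochondrial carriers, glutamate and glutamine enzymes), 2 rose and 0 fell in transgenic against young livers, with a list median of -0.09 on the log2 scale. Among all tested genes 2.89% rose and 3.83% fell, and the counts of each list below are read against these shares. Arg2, the mitochondrial arginase, was at 43.0 ± 24.8 normalized counts in transgenic livers and 8.51 ± 2.68 in young livers (SD, n = 6 each), which is 2.11 ± 0.46 on the log2 scale (SE, limma adjusted p = 0.0101). Arg2 is made by cells other than hepatocytes too, the neutrophil marker sums were higher in every transgenic library than in any young library, and their part in the Arg2 values was not tested. Slc25a12, an aspartate and glutamate carrier of mitochondria, averaged 647 ± 248 in transgenic and 264 ± 97.0 in young livers, which is 1.27 ± 0.33 on the log2 scale (SE, limma adjusted p = 0.0281).

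Of 47 further tested enzymes of amino acid breakdown, 4 rose and 0 fell, with a list median of -0.12. Mat1a, which makes S-adenosylmethionine from methionine, was at 261766 ± 58765 normalized counts in transgenic and 82024 ± 27969 in young livers, which is 1.81 ± 0.32 on the log2 scale (SE, limma adjusted p = 0.00259). Cth, which releases cysteine from cystathionine, rose by 1.30 ± 0.27, Acmsd of the tryptophan pathway by 1.58 ± 0.39 and Sdsl, a relative of Sds, by 1.32 ± 0.36 on the log2 scale. Sdsl was uneven in both groups, at 2925 ± 2506 normalized counts in transgenic and 1002 ± 1077 in young livers (SD, n = 6 each). Of 16 plasma membrane amino acid transporters 3 rose and 0 fell, with a list median of 0.66. Slc1a4 and Slc1a5, neutral amino acid transporters, rose by 2.90 ± 0.37 and 1.72 ± 0.35, and Slc16a10, which carries aromatic amino acids, by 1.05 ± 0.29 (SE, limma adjusted p from 0.000219 to 0.0390). Transgenic libraries were uneven for Slc1a4, which averaged 789 ± 849 normalized counts there and 89.8 ± 44.4 in young livers (SD, n = 6 each).

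**Figure D4:**
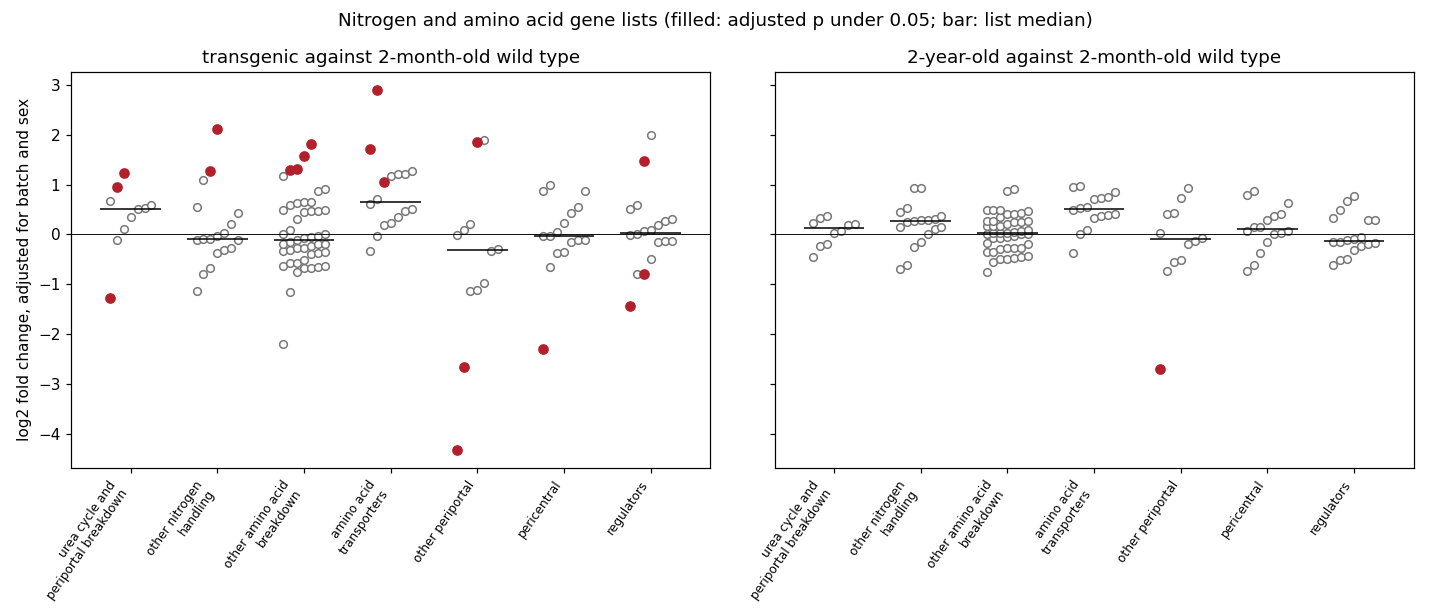
Log2 fold changes of every tested gene of 7 lists, adjusted for batch and sex, in transgenic against young livers on the left and old against young livers on the right; filled points passed the test and bars are list medians. The 10 members have a median of 0.52 on the left and 0.14 on the right, and on the right 1 point of all the lists is filled, Cdh1 at -2.70.

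Other genes of the periportal zone moved in both directions. Of 12 other periportal genes 1 rose and 2 fell in transgenic against young livers, with a list median of -0.32. Etnppl, a phosphoethanolamine lyase, rose by 1.86 ± 0.42 on the log2 scale, while the sulfotransferase Sult5a1 fell by 4.33 ± 0.53 and the cytochrome P450 Cyp2f2 fell by 2.67 ± 0.45 (SE, limma adjusted p from 0.000156 to 0.0136). Cyp2f2 averaged 4710 ± 3635 normalized counts in transgenic and 22352 ± 12272 in young livers (SD, n = 6 each). Etnppl averaged 14667 ± 20201 in transgenic and 3143 ± 1348 in young livers (SD, n = 6 each), so its transgenic libraries were very uneven. Of 16 pericentral genes 0 rose and 1 fell, with a list median of -0.03: the cytochrome P450 Cyp1a2 fell by 2.30 ± 0.52 on the log2 scale (SE, limma adjusted p = 0.0133). The 1 called gene of these lists with age was the periportal cadherin Cdh1, at 182 ± 153 in old (SD, n = 5) and 1009 ± 277 normalized counts in young livers (SD, n = 6), which fell by 2.70 ± 0.38 (SE, limma adjusted p = 0.0066).

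Among 18 regulators known to act on urea cycle or amino acid genes, 1 rose and 2 fell in transgenic against young livers. The coactivator Ppargc1a, which takes part in the fasting response of liver, rose by 1.48 ± 0.41 on the log2 scale (SE, limma adjusted p = 0.0394). Its transgenic libraries were uneven, at 1358 ± 1335 normalized counts, against 541 ± 362 in young livers (SD, n = 6 each). The fatty acid sensor Ppara fell by 1.44 ± 0.37 (SE, limma adjusted p = 0.0284), and Gcgr, the glucagon receptor, fell by 0.80 ± 0.19 (SE, limma adjusted p = 0.0181). Hnf4a, a hepatocyte factor that drives Otc, was at 16404 ± 8025 normalized counts in transgenic, 19319 ± 9366 in old and 14811 ± 5850 in young livers. Of these lists 0 other genes were called by limma with age, against 0.144% of all tested genes. In the lists without a call, an unadjusted p under 0.05 was reached by 1 of 18 partners, 3 of 47 breakdown enzymes and 0 of 16 transporters. It was also reached by 1 of 16 pericentral genes and 0 of 18 regulators. The share over all tested genes was 8.73%. The smallest p of each list belonged to Slc25a12 (0.94), Mat1a (0.91), Slc1a5 (0.75), Rnf43 (0.63) and Hnf4a (0.48), given as log2 fold changes with limma adjusted p from 0.482 to 0.596.

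Transgenic against old livers gave calls in the same lists for Sdsl (1.50 ± 0.38), Slc1a4 (2.36 ± 0.39), Etnppl (1.93 ± 0.45), Cdh1 (1.72 ± 0.38) and Ppargc1a (2.09 ± 0.43), which rose, and for Sult5a1 (-3.58 ± 0.56) and Cyp2f2 (-2.17 ± 0.47), which fell (log2 fold change ± SE, limma adjusted p from 0.00185 to 0.0430), against 2.55% of all tested genes called in either direction. In the partner and pericentral lists 0 genes were called by limma in this comparison. There 4 of 18 partners and 3 of 16 pericentral genes had an unadjusted p under 0.05, against 15.3% of all tested genes. The smallest p belonged to Slc25a10 (-0.64 ± 0.23, limma adjusted p = 0.170) and Cyp1a2 (-1.56 ± 0.55, limma adjusted p = 0.168).

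Promoters, taken as 250 bases before to 50 after the annotated start, were at hand for 5 of 10 members (Otc, Nags, Ass1, Slc25a15 and Hal). Those of Otc and Nags are shown because these genes moved in opposite directions with no overlap between the groups (RefSeq, GRCm38.p6, plus strand, chrX:10252055-10252354 and chr11:102145263-102145562).
Otc: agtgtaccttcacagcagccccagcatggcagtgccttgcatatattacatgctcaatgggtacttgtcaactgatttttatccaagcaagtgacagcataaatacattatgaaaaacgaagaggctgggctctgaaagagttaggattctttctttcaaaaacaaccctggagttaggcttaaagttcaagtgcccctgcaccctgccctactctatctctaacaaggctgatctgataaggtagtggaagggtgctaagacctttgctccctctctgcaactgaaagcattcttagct
Nags: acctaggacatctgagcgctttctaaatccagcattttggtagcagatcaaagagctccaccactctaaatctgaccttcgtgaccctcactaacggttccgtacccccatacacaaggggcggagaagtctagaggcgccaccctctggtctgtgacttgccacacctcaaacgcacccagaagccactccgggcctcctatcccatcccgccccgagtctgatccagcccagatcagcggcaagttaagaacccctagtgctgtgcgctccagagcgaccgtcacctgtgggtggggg
The share of G and C was 44.3% in the Otc window and 57.7% in the Nags window. Both strands were searched for an HNF4 motif (CAAAGTCCA, in 0.475% of 32851 promoters), a C/EBP motif (TTGCNNAA, in 10.8%) and the cyclic AMP response element (TGACGTCA, in 1.79%); none of these motifs contains another. Of the 5 genes, Hal held 1 match, to the C/EBP motif, 150 bases before its start.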

How the data were processed

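Polyadenylated liver RNA of 17 libraries was measured. The submitters' processing notes name DESeq2, Salmon 0.6.0, STAR 2.5.3a and the mm10 build, and neither their roles nor the annotation or strand setting is given. One deposited table holds normalized counts (a signal, not whole numbers) per gene and library. Of values under 20 steps of 1 read, 47.2% to 69.3% lay within 0.1 of a whole step, so whole reads were not recovered, and depth is unknown. The authors also deposited 2 tables of comparisons, corrected for batch and sex per their names, with log2 fold changes, test scores and p-values per the file headers; they serve as an alternative.

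Here limma 3.58.1 (R 4.3.3, trended empirical Bayes) was fitted to log2(normalized count + 1) of the 14588 genes with a mean of at least 10, with group, batch and sex as terms and all 17 libraries in 1 fit. Tests were two-sided, with Benjamini-Hochberg adjustment over all genes and a call at adjusted p under 0.05; "rose" and "fell" are used of called genes. The log2(value + 1) scale understates changes of low genes. Adjusted fold changes can differ from ratios of group means. Scripts were tested on simulated data. Sequences and GENCODE M21 coordinates are of GRCm38, the assembly mm10 names. Genome overlaps and near copies were found with the annotation and blastn 2.17.0.

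The members and lists were chosen with earlier results of these data known. Named genes were all members, up to 4 called genes per list and direction (or the gene with the smallest p where none was called), and the 3 nearest genes of each member, of which 1 is not reported here. Alternatives covered pseudocount, low-value filter, scaling, terms, single batches, males alone, single left-out libraries and the authors' tables. Division by hepatocyte markers other than albumin was added after seeing the data.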

Additional observations from a re-analysis of the deposited data

Results flagged for a closer look

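Of 30 sets of values (10 members in 3 groups), 2 held a library far from the rest of its group by Dixon's criterion, which flags about 1 in 20 sets by chance. Otc in transgenic replicate 3, the only transgenic female, was 3027 normalized counts, against 7242 to 9248 in the other transgenic libraries. Nags in old replicate 4, a batch B male, was 3453 normalized counts, against 1670 to 2095 in the other old libraries. The same old library had the highest old values of Arg1 (90200), Ass1 (207544) and Asl (47949) and the lowest of Otc (7197).

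The interaction term of transgene and sex for Otc, males minus females, was 1.74 on the log2 scale and passed the threshold (limma adjusted p = 0.0267). Its female side is 1 transgenic library, the same low one, so the term sets that library apart and does not compare the sexes.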

How the results depend on the processing

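The calls of Asl, Nags and Otc in transgenic against young livers were kept in all 17 fits without 1 library (3 to 4 members called; Slc25a15 was the fourth without transgenic replicate 1). There Otc ranged from -1.35 to -0.83 (limma adjusted p 0.00761 to 0.0422), Asl from 1.08 to 1.35 (0.00258 to 0.0132) and Nags from 0.91 to 1.07 (0.00115 to 0.0101). Batch B alone called 0 members and batch A alone 2; the authors' deposited table called 6, adding Cps1, Arg1 and Slc25a15. With age the count was 0 under every alternative. In transgenic against old livers the 1 call became 0 without a low-value filter, without batch and sex terms, in batch A, batch B, males or the 2 groups alone, and after division by hepatocyte markers. It became 3 with quantile normalization and 0 to 2 without 1 library: it was lost without old replicates 1, 2, 3 or 5, young 1, 3 or 6, or transgenic 2, 3, 5 or 6, and also without transgenic 1, where Asl and Slc25a15 were called in its place. The interaction of transgene and sex became 0 with equal totals and was 0 to 1 without 1 library.

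With replicate number as a block, 3 members were called in transgenic against young, 0 with age and 0 in transgenic against old livers, and genes called were 796 against 979, 11 against 21 and 247 against 372. Deviations of same-numbered libraries correlated at over 0.1 in 13 of 16 pairs (5 of 6 between transgenic and young), with a range of -0.23 to 0.59. The deviations were taken from group means with batch and sex left in, so these correlations cannot tell pairing from a shared batch or sex. Pairing was to be accepted only with every pair over 0.1 and the labels name no shared animal or day, so the numbers were not taken as pairs.

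Members that changed sign did so without passing the test. In transgenic against young livers these were Gls2 with equal totals (0.020), quantile normalization (0.13) and batch B (0.29), Hal in males (-0.0066) and Sds in batch A (-0.58; -0.11 to 0.37 without 1 library). With age they were Cps1 in batch A (-0.20; -0.0013 to 0.48 without 1 library), Asl in batch B (-0.082), Arg1 with the replicate block (-0.079) and in batch A (-0.057; -0.16 to 0.15 without 1 library), Slc25a15 in batch A (0.080), Slc25a15 and Hal after division by hepatocyte markers (0.016 and 0.056) and Sds in males (-0.048; -0.12 to 0.20 without 1 library). In transgenic against old livers they were Cps1 in batch B (-0.18) and males (-0.044), and Sds without batch and sex terms (-0.060), in batch A (-0.67) and after division by hepatocyte markers (-0.13; -0.18 to 0.32 without 1 library). The cause was not tested.

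Genes called between transgenic and young livers numbered 979 in all, against 495 in batch A, 263 in batch B, 421 without batch and sex terms, 593 after division by hepatocyte markers and 2211 in the authors' deposited table. Equal totals moved the median of all genes to 0.14 there and to 0.13 with age, and division by hepatocyte markers moved it to 0.24 with age and -0.13 in transgenic against old livers. Equal totals gave 515 rises and 400 falls, against 421 and 558. Depth is unknown, so counting error could not be set beside these values.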
